A study of Homo sapiens with 12 samples.

Results

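Glycolysis and pyruvate handling were examined through 33 genes, chosen by name for their role in glucose uptake, the glycolytic steps, lactate exchange, pyruvate dehydrogenase and the regulation of these, out of 58735 genes in the tables. RNA was sequenced in 12 libraries from HLE-B3, a human lens epithelial line grown in DMEM/F12 with serum. The 4 groups of 3 replicates were untreated WT cells (0 h), WT cells given 200 μM H2O2 for 12 h, untreated Atg7KO cells (0 h) and Atg7KO cells given 200 μM H2O2 for 12 h. The libraries held 15602183 to 17659496 reads on genes, with group medians of 17290405, 17044512, 17149028 and 17290962 in that order. The treated cells were collected after 12 h and the untreated cells at 0 h, so H2O2 and 12 h in culture cannot be told apart. The Atg7KO line was made with CRISPR/Cas9 and grown from picked clones, and which clones were sequenced is not given in the sources used here, so genotype and clone cannot be told apart. The study's methods call the replicates biological, but neither they nor the labels say whether these were separate cultures, so p-values measure the spread between these samples, which may be technical.

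In glycolysis, glucose enters the cell through GLUT transporters, is phosphorylated by hexokinase and is split into triose phosphates, whose oxidation yields ATP, NADH and pyruvate. Pyruvate is either reduced to lactate, which leaves through monocarboxylate transporters, or enters mitochondria, where the pyruvate dehydrogenase complex turns it into acetyl-CoA unless pyruvate dehydrogenase kinases switch the complex off. The lens has no blood vessels and little oxygen, and relies largely on glycolysis for ATP. Many glycolytic genes are known targets of the transcription factor HIF-1, while TXNIP and ARRDC4, arrestin-family proteins that limit glucose uptake, are known targets of the glucose sensor MondoA.

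The targeted gene was examined first. ATG7 had 2.81, 2.64 and 2.21 FPKM (fragments scaled by gene length and library size) in untreated WT cells and 3.78, 3.42 and 3.43 FPKM in untreated Atg7KO cells. After H2O2 it had 1.99, 1.91 and 1.97 FPKM in WT cells and 2.11, 2.12 and 2.35 FPKM in Atg7KO cells. ATG7 mRNA was thus not lower in the libraries labelled Atg7KO, with log2 fold changes against WT of 0.47 untreated (adjusted p = 0.0348; 0.43, passing at adjusted p = 6.02e-06, without untreated Atg7KO replicate 1) and 0.15 after H2O2 (adjusted p = 0.135) in edgeR's quasi-likelihood test, Benjamini-Hochberg adjusted. The study's methods state that the picked clones were examined by western blotting for deletion of the gene. A disrupted gene can still be transcribed, so these counts cannot check the label, and each difference between Atg7KO and WT cells below is one between libraries so labelled.

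The label of lens epithelium was compared with marker genes. Of 12 lens epithelial markers, 4 were above 1 FPKM in at least 1 group, namely GJA1, SIX3, PAX6 and CRYAB, and GJA1 was the most abundant with group means from 23.9 to 50.5 FPKM. FOXE3, PROX1, MAF, CRYAA, CDH1 and AQP1 were at or near 0 in every library, and SOX2 had no reads. Of 8 fibroblast or mesenchymal markers 7 were above 1 FPKM, COL1A1 and VIM being the most abundant. Their summed level was 1125, 1138 and 1123 FPKM in untreated WT cells, 679, 649 and 664 FPKM in treated WT cells, 801, 880 and 872 FPKM in untreated Atg7KO cells and 542, 555 and 554 FPKM in treated Atg7KO cells. The markers of lens fibres (1 of 10 above 1 FPKM, CRYGS), leukocytes (2 of 5, CD14 and LYZ) and endothelium (0 of 4, with KDR the most abundant) were low. The part of these marker levels in the results was not tested.

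Replicate 1 of the untreated Atg7KO cells stood apart from its group. Its log2 counts had a mean Pearson r of 0.974 across genes with the other replicates of its group, against about 0.991 for each library of the other groups and 0.983 for replicates 2 and 3. Its mean gene length weighted by counts was 5740 bases, against 6607 and 6605 bases in replicates 2 and 3. It was also shorter in treated WT cells, at 6161, 6166 and 6122 bases, than in untreated WT cells (6605, 6661 and 6631 bases) or treated Atg7KO cells (6546, 6578 and 6589 bases), so comparisons with treated WT cells were also fitted with an offset for gene length. Among the members its FPKM ranged from 0.635 times the mean of the other 2 libraries, for HK2, to 2.27 times, for LDHB. Counts of genes passing the adjusted p threshold in edgeR that rest on replicate 1 of the untreated Atg7KO cells are given with and without it. Sets that also met the fold change and FPKM thresholds are given with it, and members whose place changed without it are named.

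The 33 members took 1.15 ± 0.00833% (mean ± SD, n = 3) of all counted reads in untreated WT cells and 1.23 ± 0.0146% after H2O2. In Atg7KO cells they took 1.08 ± 0.0430% and 1.05 ± 0.00306%, with untreated replicate 1 at 1.13% and replicates 2 and 3 at 1.06%. Their share of the summed FPKM was 0.936 ± 0.00974% and 0.977 ± 0.00908% in untreated and treated WT cells, and 0.817 ± 0.0213% and 0.866 ± 0.00479% in Atg7KO cells. The mitochondrial share of reads was 4.68 ± 0.255% and 3.72 ± 0.180% in untreated and treated WT cells, and 4.37 ± 0.0684% and 3.20 ± 0.0620% in Atg7KO cells. In each line the untreated and treated libraries did not overlap in it, and its part in the results was not tested. In bulk RNA, fewer cells of a kind and less RNA per cell cannot be told apart. GAPDH was the most abundant member per length, at a mean of 495 FPKM over the groups, followed by ENO1 (371 FPKM), TPI1 (216 FPKM) and PKM (205 FPKM). At the low end stood PDK1 (1.35 FPKM), PDK4 (1.08 FPKM) and ALDOC (0.440 FPKM). ALDOA had 2.49 FPKM, and 53.5% of its exon bases are shared with other annotated genes.

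**Figure D1:**
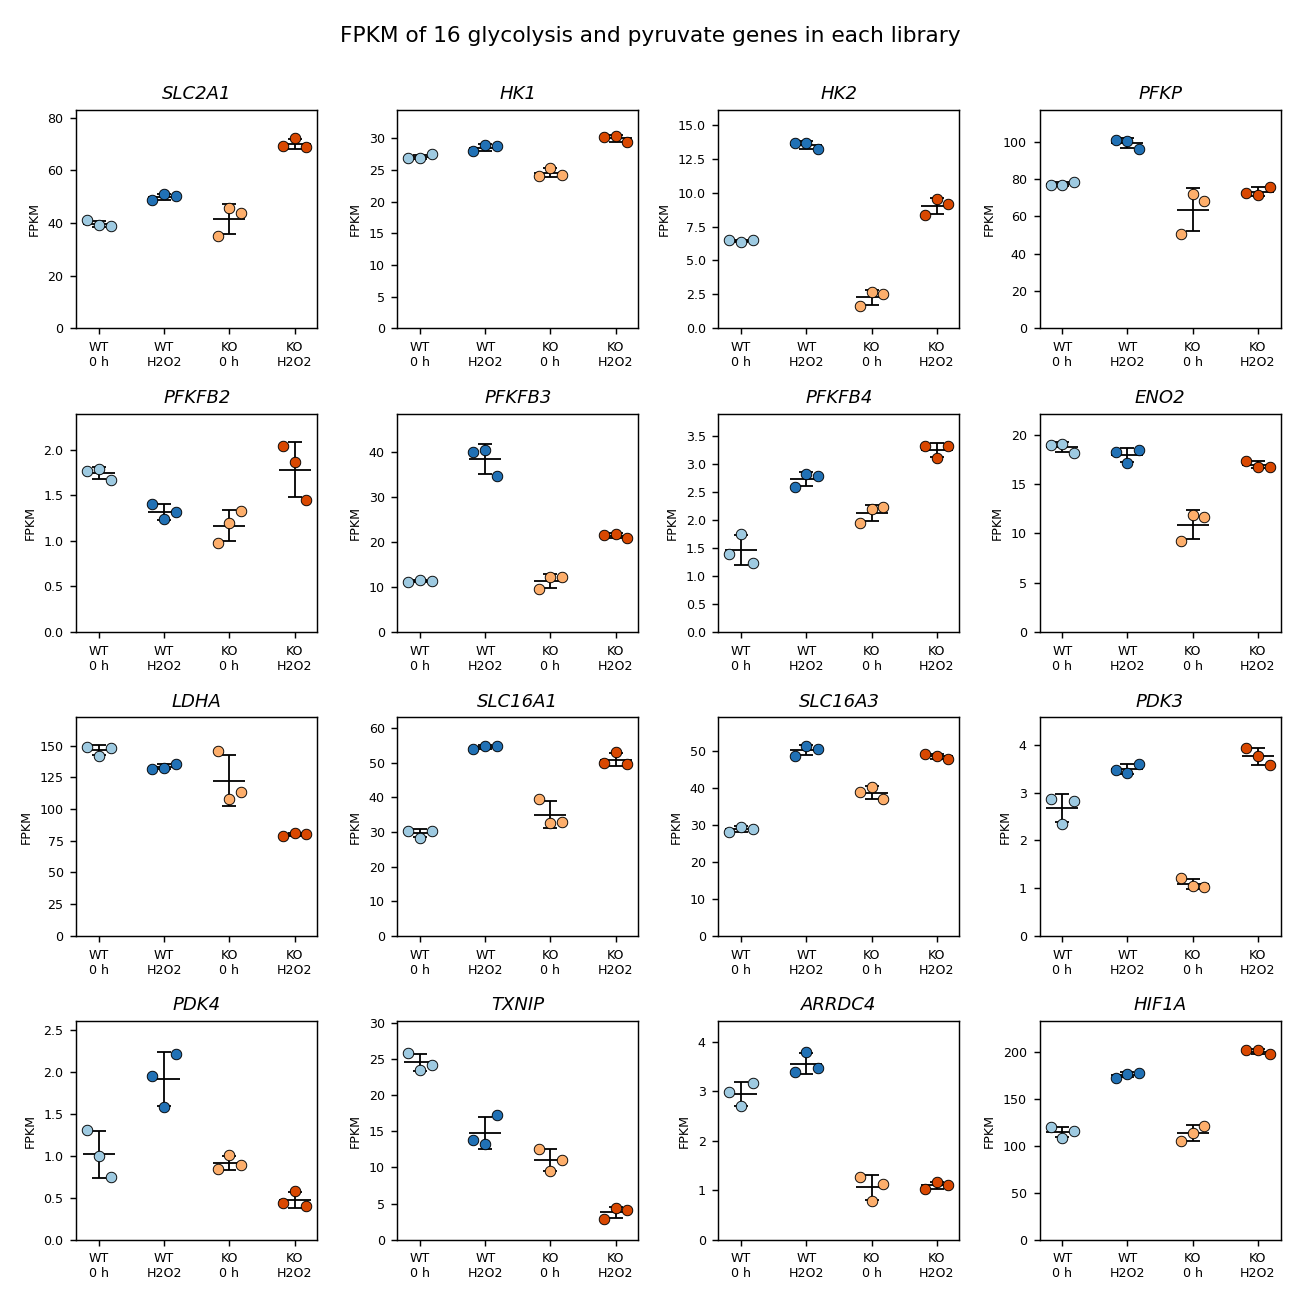
Expression of 16 members in each of the 12 libraries, in FPKM (vertical axes), by group (horizontal axes). Points are libraries, dashes are group means and bars are the SD of 3 libraries; TXNIP had means of 24.5 and 14.8 FPKM in untreated and treated WT cells, and 3.78 FPKM in treated Atg7KO cells.

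The first comparison asked how WT cells differed after H2O2. Genes with an adjusted p under 0.01 in edgeR's quasi-likelihood test are counted as passing here and below. In WT cells 14 of the 33 members rose (42.4%, against 30.9% of all genes tested) and 9 fell (27.3%, against 30.1%). The median log2 fold change of the members was 0.11, and that of all genes −0.01. HK2 and PFKFB3 also had a log2 fold change beyond 1 and a mean above 1 FPKM in a group, as did 12.5% of all genes. Without 1 library, 21 to 23 members passed. By role, 4 of 5 members of uptake and phosphorylation passed, 6 of 6 of phosphofructokinase and fructose 2,6-bisphosphate, 3 of 9 from aldolase to pyruvate kinase, 3 of 4 of lactate, 5 of 6 of pyruvate dehydrogenase and 2 of 3 regulators. Of all genes, 61% passed in either direction.

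In Atg7KO cells 9 members rose after H2O2 (27.3%, against 13.6% of all genes) and 7 fell (21.2%, against 12.4%), with a median of 0.02 for the members and −0.03 for all genes. HK2, PDK3, PDHB and TXNIP passed the fold change and FPKM thresholds too (11.2% of all genes). PDHB (−0.99) fell short of the fold change threshold without untreated replicate 1, where PDK2 (−1.07) passed it. Without untreated replicate 1, 14 members rose and 10 fell, against 29.8% and 28.6% of all genes, and the 16 members that passed with it were among them. Fewer passed without any other library: 9 without untreated replicate 2 or 3, 6 without treated replicate 1, 5 without treated replicate 2 and 6 without treated replicate 3. HK2, PDK2, PDK3, HIF1A and TXNIP passed in each of these 6 fits. No share of all genes is given for the fits without a library other than untreated replicate 1. Their counts of members therefore cannot be set against all genes.

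Between the lines after H2O2, 19 of the 33 members were lower in Atg7KO than in WT cells (57.6%, against 27.9% of all genes) and 4 were higher (12.1%, against 27.7%). The median was −0.34, with 26 members below 0, and that of all genes was 0.00. The 4 higher members were SLC2A1, PFKFB2, PKM and HIF1A, of which SLC2A1 alone passed in the fit of all 12 libraries. LDHB, PDK4, TXNIP and ARRDC4 passed the fold change and FPKM thresholds (7.46% of all genes), and each was lower. Without 1 library, 22 to 24 members passed, and PFKFB2 did not pass without treated Atg7KO replicate 1.

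Untreated Atg7KO cells had 6 members lower than untreated WT cells (18.2%, against 3.28% of all genes) and 0 higher (against 4.42%). These were HK2, ENO2, PDK1, PDK3, TXNIP and ARRDC4, and each but ENO2 passed the fold change and FPKM thresholds (3.50% of all genes). The median was −0.24, with 25 members below 0, against 0.01 for all genes. At an unadjusted p under 0.05 in edgeR's quasi-likelihood test, 3 members were higher and 13 lower, against 32.9% of all genes in either direction. DESeq2 called 2 higher and 8 lower, against 8.78% and 7.57%. Without untreated Atg7KO replicate 1, 5 were higher and 19 lower, against 18.2% and 17.9% of all genes, and these included the 6. Without untreated WT replicate 1, 2 or 3 the counts were 1, 2 and 1, with PDK1 passing in each. No share of all genes is given for these fits, so their counts cannot be set against all genes.

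The difference between the H2O2 responses of the lines was tested as an interaction in all 12 libraries. It passed for 7 members: the response was higher in Atg7KO cells for HK2, PFKFB2, ENO2 and PDK3 (12.1%, against 7.02% of all genes) and lower for PFKFB3, SLC16A3 and PDK4 (9.09%, against 7.01%). Without untreated Atg7KO replicate 1 the counts were 7 and 9, against 17.8% and 16.3% of all genes, with the 7 members among them, and 4 members passed without treated WT replicate 2. These comparisons share groups of libraries and are not independent of each other.

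**Figure D2:**
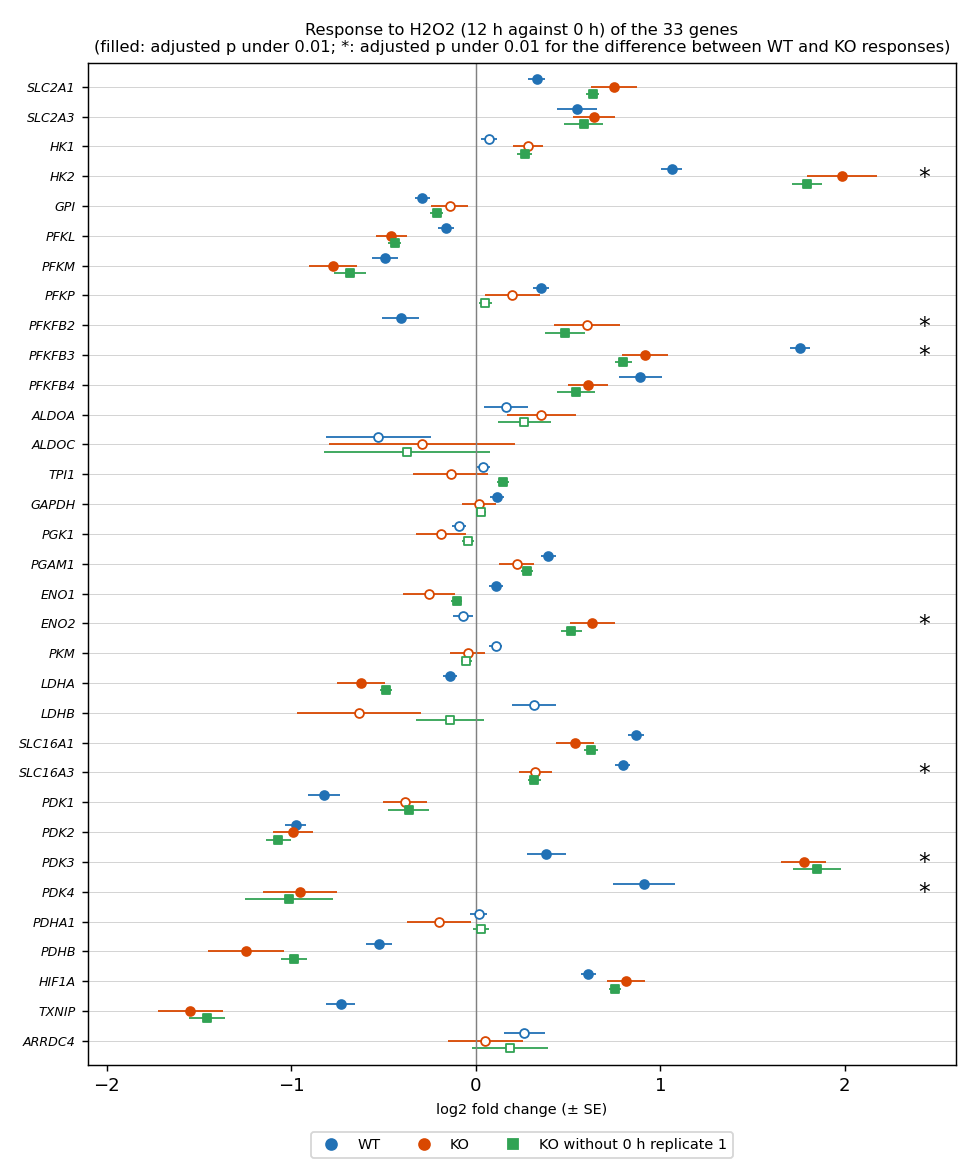
Log2 fold change after H2O2 (horizontal axis) of each of the 33 members (vertical axis) in WT cells (blue), Atg7KO cells (orange) and Atg7KO cells without untreated replicate 1 (green squares), with bars of 1 standard error. Filled symbols have an adjusted p under 0.01, and asterisks mark the 7 members whose responses differed between the lines, from PDK4 (−1.86) to PDK3 (1.40).

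Glucose uptake and phosphorylation. The hexokinases carry out the first step of glucose use in the cell: HK1 is the widely expressed form, and HK2 the form known to be induced by growth signals and HIF-1. HK2 (ENSG00000159399, chromosome 2, 74833981 to 74893359) had 6.49, 6.34 and 6.51 FPKM in untreated WT cells and 13.7, 13.7 and 13.2 FPKM after H2O2. In Atg7KO cells it had 1.64, 2.64 and 2.53 FPKM untreated and 8.39, 9.56 and 9.18 FPKM after H2O2. No group overlapped another: the untreated Atg7KO libraries were lowest and the treated WT libraries highest. HK2 rose by 1.06 on the log2 scale in WT cells (SE 0.06, adjusted p = 1.88e-21) and by 1.99 in Atg7KO cells (SE 0.19, adjusted p = 0.000290; 1.79 without untreated replicate 1) in edgeR's quasi-likelihood test, Benjamini-Hochberg adjusted. It was lower in Atg7KO than in WT cells, by a log2 fold change of −1.50 untreated (adjusted p = 0.00213) and −0.59 after H2O2 (adjusted p = 3.04e-11) by the same edgeR test. The untreated difference did not pass when any 1 WT library was left out. The interaction did not pass in 7 fits, those without untreated WT replicate 1 or 3, any 1 treated WT library or treated Atg7KO replicate 2 or 3. HK1 had 27.1 ± 0.357, 28.6 ± 0.526, 24.6 ± 0.688 and 30.0 ± 0.513 FPKM (mean ± SD, n = 3, untreated and treated WT, untreated and treated Atg7KO), and passed in none of the 4 comparisons, but in Atg7KO cells it did without untreated replicate 1 (0.26).

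HK2 therefore made up 19.2 ± 0.203% of the summed HK1 and HK2 FPKM in untreated WT cells and 32.1 ± 0.689% after H2O2, and 8.42 ± 1.78% and 23.1 ± 1.25% in Atg7KO cells. The shares of the groups did not overlap in any of the 4 comparisons. The exact two-sided permutation test gave p = 0.1 for each, the smallest that 3 against 3 libraries allow, which cannot reach 0.05.

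A promoter of HK2 is shown as an example from the 7 members whose responses differed, together with that of PDK3, the member with the highest interaction value. HK2 has another window in the table, with 6 HIF cores and 2 E-boxes, and the window of PDK4, the member with the lowest interaction value, has 0 HIF cores. Both are from RefSeq on GRCh38.p14, run from 250 bases before to 50 bases after the annotated start on the plus strand, and have the HIF core letters ACGTG or GCGTG, on either strand, in capitals. The HK2 window at chr2:74833877-74834176 has these letters from 229, 55 and 48 bases before the start, and the PDK3 window at chrX:24465036-24465335 from 102 and 61 bases before it. CACGT and CACGC are the same letters read on the other strand.
HK2: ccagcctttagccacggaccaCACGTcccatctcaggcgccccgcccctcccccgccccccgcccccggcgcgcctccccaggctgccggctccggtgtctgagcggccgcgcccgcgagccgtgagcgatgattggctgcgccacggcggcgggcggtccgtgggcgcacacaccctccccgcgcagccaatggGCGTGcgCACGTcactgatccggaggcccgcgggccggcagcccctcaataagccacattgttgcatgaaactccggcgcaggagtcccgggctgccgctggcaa
PDK3: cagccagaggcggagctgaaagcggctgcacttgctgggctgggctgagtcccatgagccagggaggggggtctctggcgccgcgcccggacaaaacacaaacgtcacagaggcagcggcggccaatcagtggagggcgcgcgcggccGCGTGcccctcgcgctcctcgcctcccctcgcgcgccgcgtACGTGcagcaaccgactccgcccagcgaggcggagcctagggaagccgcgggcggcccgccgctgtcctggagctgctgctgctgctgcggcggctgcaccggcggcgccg
The table of promoters held 60 windows of 30 members. At least 1 HIF core was found in 39 of them (65%), belonging to 28 of the 30 genes, and in 48.4% of all 35116 promoters. A run of letters this short is common, and a match describes the sequence, not a bound site.

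SLC2A1, the widely expressed glucose transporter GLUT1, had 39.6 ± 1.16 FPKM in untreated WT cells and 48.8, 51.1 and 50.1 FPKM in treated ones, and 41.5 ± 5.81 and 70.1 ± 1.90 FPKM in Atg7KO cells. It rose in both lines (0.33, adjusted p = 7.03e-09 in WT; 0.75, adjusted p = 0.00327 in Atg7KO; edgeR with Benjamini-Hochberg adjustment) and was higher in treated Atg7KO than in treated WT cells (0.48, SE 0.04, adjusted p = 3.40e-13). It was the member with the highest log2 fold change in that comparison. SLC2A3, the high-affinity transporter GLUT3, was low at 2.02 to 3.35 FPKM by group and rose in both lines, by 0.55 and 0.64. In Atg7KO cells SLC2A1 did not pass without untreated replicate 3 or any 1 treated library, nor SLC2A3 without untreated replicate 2 or any 1 treated library. GPI, which turns glucose 6-phosphate into fructose 6-phosphate, fell in WT cells (−0.29), though not past the threshold with an offset for gene length, and was lower in treated Atg7KO than in treated WT cells (−0.33, adjusted p = 1.71e-09 by edgeR).

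Phosphofructokinase and fructose 2,6-bisphosphate. Phosphofructokinase is the main controlled step of glycolysis. Its strongest activator, fructose 2,6-bisphosphate, is made and removed by the PFKFB enzymes, of which PFKFB3 has by far the highest ratio of making to removing. PFKFB3 (ENSG00000170525, chromosome 10, 6144934 to 6254644) had 11.1, 11.6 and 11.3 FPKM in untreated WT cells and 40.1, 40.5 and 34.5 FPKM after H2O2. In Atg7KO cells it had 9.44, 12.2 and 12.2 FPKM untreated and 21.5, 21.8 and 20.8 FPKM after H2O2. The untreated groups overlapped, and treated WT libraries lay far above treated Atg7KO libraries. Its log2 fold change after H2O2 was 1.76 in WT cells (SE 0.05, adjusted p = 7.31e-30) and 0.92 in Atg7KO cells (SE 0.12, adjusted p = 0.00132) by edgeR's quasi-likelihood test, Benjamini-Hochberg adjusted. The rise in Atg7KO cells did not pass without treated replicate 2. The responses differed by −0.84 (adjusted p = 0.00121), and treated Atg7KO cells were lower than treated WT cells by a log2 fold change of −0.85 (adjusted p = 1.03e-14), both by edgeR. Untreated cells of the lines had a log2 fold change of −0.01 (adjusted p = 0.979 by edgeR), which was 0.11 without untreated Atg7KO replicate 1.

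PFKFB2, the form known from heart muscle, had 1.77, 1.79 and 1.67 FPKM in untreated WT cells, 1.41, 1.24 and 1.32 FPKM in treated WT cells, 0.981, 1.20 and 1.32 FPKM in untreated Atg7KO cells and 2.04, 1.86 and 1.45 FPKM in treated Atg7KO cells. It fell in WT cells (−0.41, adjusted p = 0.000413; not passing with an offset for gene length, with limma or in the fit of all 12 libraries), while its value in Atg7KO cells was 0.60 (adjusted p = 0.0305), which did not pass in edgeR's quasi-likelihood test, Benjamini-Hochberg adjusted. Without untreated replicate 1 the latter was 0.48 and passed (adjusted p = 2.69e-05 by edgeR). PFKFB4 rose by 0.89 in WT and 0.61 in Atg7KO cells, the latter not passing without any 1 library other than untreated replicate 1. PFKFB2 was higher in treated Atg7KO than in treated WT cells (0.42, adjusted p = 0.00127 by edgeR), which did not pass without treated Atg7KO replicate 1 nor under the same 3 alternatives, and its interaction did not pass without treated WT replicate 2. The summed FPKM of PFKFB2, PFKFB3 and PFKFB4 was 14.5 ± 0.524 and 14.6 ± 1.89 FPKM in untreated WT and Atg7KO cells, and 42.4 ± 3.29 and 26.4 ± 0.702 FPKM after H2O2. PFKFB3 took 77.9 ± 1.48% and 77.3 ± 0.953% of it in untreated cells, which overlapped (exact permutation test, p = 0.6), and 90.4 ± 0.876% and 81.0 ± 0.787% after H2O2, which did not (exact permutation test, p = 0.1).

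Of the phosphofructokinase subunits, the platelet form PFKP was the most abundant. It had 77.4 ± 1.05 and 99.2 ± 2.81 FPKM in untreated and treated WT cells, and 63.5 ± 11.4 and 73.2 ± 2.32 FPKM in Atg7KO cells. PFKP rose in WT cells (0.35, adjusted p = 1.79e-10) and had a value of 0.20 in Atg7KO cells (adjusted p = 0.315; 0.0513 without untreated replicate 1, not passing), by edgeR. The rise in WT cells did not pass in the fit of all 12 libraries. The muscle form PFKM fell in both lines, by a log2 fold change of −0.49 in WT and −0.77 in Atg7KO cells. The liver form PFKL fell too, by −0.16 and −0.46, but with an offset for gene length its value in WT cells was 0.05, and in the fit of all 12 libraries it did not pass. After H2O2 the subunits PFKL, PFKM and PFKP were each lower in Atg7KO than in WT cells, by −0.16, −0.61 and −0.45, of which that of PFKL did not pass in the fit of all 12 libraries. In Atg7KO cells the fall of PFKM did not pass without any 1 treated library, and that of PFKL without any 1 library other than untreated replicate 1.

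Aldolase to pyruvate kinase. Of the 9 members in this stretch, GAPDH (0.12), PGAM1 (0.39) and ENO1 (0.11) rose in WT cells, against 30.9% of all genes, and the rises of GAPDH and ENO1 did not pass when any 1 library was left out. In the fit of all 12 libraries the rises of GAPDH and ENO1 did not pass either. In Atg7KO cells ENO2 alone of the 9 passed with all 6 libraries, while 13.6% of all genes rose and 12.4% fell. Without untreated replicate 1, TPI1 (0.15, against −0.14 with it), PGAM1 (0.28) and ENO1 (−0.10) passed as well, and the shares of all genes were 29.8% and 28.6%. Between the treated lines 1 of the 9, PKM, was higher and 5 were lower in Atg7KO cells, against 27.7% and 27.9% of all genes: TPI1 (−0.34), GAPDH (−0.23), PGK1 (−0.38), PGAM1 (−0.42) and ENO1 (−0.46), of which TPI1 and GAPDH did not pass in the fit of all 12 libraries. ENO1, which makes phosphoenolpyruvate, had 413, 429 and 421 FPKM in treated WT cells and 307, 310 and 308 FPKM in treated Atg7KO cells, with no overlap (adjusted p = 7.32e-15, edgeR's quasi-likelihood test, Benjamini-Hochberg adjusted). PKM, pyruvate kinase, was higher in treated Atg7KO cells by 0.14 (adjusted p = 0.000113 by edgeR), but did not pass with an offset for gene length or in the fit of all 12 libraries. In untreated cells 4.42% of all genes were higher and 3.28% lower in the Atg7KO line, or 18.2% and 17.9% without Atg7KO replicate 1. Of the 9 members 8, each but ENO2, did not pass. Without untreated Atg7KO replicate 1, 7 of these did: PKM was higher in Atg7KO cells (0.30, and 0.30 with it), and lower were TPI1 (−0.44, against −0.16 with it), PGK1 (−0.42, against −0.28), ENO1 (−0.23, against −0.09), PGAM1 (−0.29, against −0.24), GAPDH (−0.13, against −0.12) and ALDOC (−1.15, against −1.23).

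ENO2, the enolase known from neurons, moved differently from ENO1. It had 19.0, 19.1 and 18.2 FPKM in untreated WT cells and 18.2, 17.1 and 18.5 FPKM after H2O2, and 9.21, 11.8 and 11.7 FPKM in untreated Atg7KO cells and 17.4, 16.8 and 16.8 FPKM after H2O2. The untreated Atg7KO libraries lay below the rest, and the treated lines overlapped. The log2 fold change after H2O2 was −0.07 in WT cells (adjusted p = 0.263) and 0.63 in Atg7KO cells (adjusted p = 0.00572), a difference of 0.70 (adjusted p = 0.00209), in edgeR's quasi-likelihood test, Benjamini-Hochberg adjusted. The rise in Atg7KO cells was 0.52 and passed without untreated replicate 1, but did not pass in the 5 fits that each left out another library, nor with a replicate block. Untreated Atg7KO cells were lower than untreated WT cells by −0.78 (adjusted p = 0.00603 by edgeR; −0.67 without replicate 1), which did not pass in the 5 fits that each left out another library.

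Reads can be shared between these genes and others. By GENCODE release 29, whose exon lengths equal those of the tables for 33 of 33 members, more than 10% of the exon bases of 6 members overlap another gene: ALDOA 53.5%, PDK2 38.6% (SAMD14, on the opposite strand), LDHB 33.4%, PDHA1 21.3% (MAP3K15, opposite strand), GAPDH 14.2% and ALDOC 10.1%. The strand setting of the counting and its handling of multi-mapping reads are not given in the sources used here, so the values of these 6 genes are uncertain. Of the members, 14 have 107 pseudogenes named after them, 62 of them of GAPDH. The GAPDH pseudogenes summed to 9.76 FPKM, against 495 FPKM for GAPDH, and those of TPI1 to 9.45 FPKM, against 216 FPKM.

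Lactate. LDHA, the lactate dehydrogenase subunit that favours lactate formation, had 149, 142 and 148 FPKM in untreated WT cells and 132, 133 and 135 FPKM after H2O2. In Atg7KO cells it had 146, 108 and 114 FPKM untreated and 78.9, 80.9 and 80.0 FPKM after H2O2. The treated Atg7KO libraries lay below every other library, and the untreated lines overlapped through Atg7KO replicate 1. LDHA was lower in treated Atg7KO than in treated WT cells by a log2 fold change of −0.75 (SE 0.03, adjusted p = 2.96e-19) by edgeR's quasi-likelihood test, Benjamini-Hochberg adjusted. It fell after H2O2 by −0.14 in WT cells (adjusted p = 0.00161; not passing with an offset for gene length or in the fit of all 12 libraries) and −0.62 in Atg7KO cells (adjusted p = 0.00824), and the difference of −0.48 did not pass (adjusted p = 0.0202), by edgeR. Without untreated Atg7KO replicate 1 that difference was −0.33 and passed (adjusted p = 5.48e-08, edgeR), and the fall in Atg7KO cells did not pass when any 1 other library was left out.

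Lactate leaves the cell through SLC16A1 and SLC16A3. SLC16A3 (MCT4, the exporter of glycolytic cells) had 28.0 to 29.5 FPKM in the 3 untreated WT libraries and 48.7, 51.4 and 50.6 FPKM after H2O2, and 38.8, 40.4 and 37.0 FPKM in untreated Atg7KO cells and 49.2, 48.8 and 47.9 FPKM after H2O2. The untreated groups did not overlap each other, and the treated groups did. SLC16A3 rose in WT cells by 0.80 (adjusted p = 9.52e-22) and had a value of 0.32 in Atg7KO cells (adjusted p = 0.0232; 0.32 and adjusted p = 3.19e-18 without untreated replicate 1), with a difference of −0.47 (adjusted p = 0.00280), by edgeR's quasi-likelihood test, Benjamini-Hochberg adjusted. The interaction of SLC16A3 did not pass in 6 fits, those without WT untreated replicate 1 or 3, treated WT replicate 2 or any 1 treated Atg7KO library. SLC16A1 (MCT1) rose by 0.87 in WT and 0.54 in Atg7KO cells, the latter not passing without any 1 library other than untreated replicate 1. LDHB, the subunit that favours pyruvate formation, was low, at 4.21, 4.79 and 3.72 FPKM in treated WT cells and 1.92, 1.63 and 1.64 FPKM in treated Atg7KO cells, a log2 fold change of −1.30 (adjusted p = 5.06e-10 by edgeR).

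Pyruvate dehydrogenase. The 4 kinases PDK1 to PDK4 phosphorylate the E1 alpha subunit, encoded by PDHA1, and so hold the complex inactive. Their transcripts moved in different directions. PDK3 (ENSG00000067992, chromosome X, 24465221 to 24541862) had 2.86, 2.34 and 2.82 FPKM in untreated WT cells and 3.47, 3.41 and 3.61 FPKM after H2O2. In Atg7KO cells it had 1.21, 1.04 and 1.03 FPKM untreated and 3.94, 3.76 and 3.59 FPKM after H2O2. The untreated Atg7KO libraries lay below all others, and the treated lines overlapped. PDK3 rose by 0.38 in WT cells (SE 0.10, adjusted p = 0.00115) and by 1.78 in Atg7KO cells (SE 0.12, adjusted p = 6.85e-05), a difference of 1.40 (SE 0.15, adjusted p = 9.19e-05), by edgeR's quasi-likelihood test, Benjamini-Hochberg adjusted. The rise in WT cells did not pass without untreated WT replicate 2, and the untreated difference between the lines (−1.29, adjusted p = 0.00132 by edgeR) did not pass without WT replicate 1 or 3. Its promoter is printed above.

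PDK4 (ENSG00000004799, chromosome 7, 95583499 to 95596491), the kinase known to be induced in fasting, had 1.31, 0.998 and 0.748 FPKM in untreated WT cells and 1.96, 1.58 and 2.21 FPKM after H2O2. The Atg7KO libraries had 0.845, 1.01 and 0.896 FPKM untreated and 0.439, 0.579 and 0.408 FPKM after H2O2. The treated lines lay at opposite ends, with the untreated lines overlapping between them. PDK4 rose in WT cells (0.91, SE 0.17, adjusted p = 7.20e-06) and fell in Atg7KO cells (−0.95, SE 0.20, adjusted p = 0.00827), a difference of −1.86 (SE 0.31, adjusted p = 0.00114), by edgeR's quasi-likelihood test, Benjamini-Hochberg adjusted. The fall in Atg7KO cells was −1.01 without untreated replicate 1, where it passed, and did not pass in the 5 fits that each left out another library. Treated Atg7KO cells were lower than treated WT cells by −2.02 (adjusted p = 2.78e-11 by edgeR).

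PDK2, the most abundant of the kinases, fell after H2O2 by −0.98 in WT and −0.99 in Atg7KO cells (adjusted p = 1.35e-19 and 0.000524 by edgeR), from 13.7 ± 0.453 to 6.97 ± 0.173 FPKM and from 10.9 ± 1.11 to 5.51 ± 0.222 FPKM. PDK1, a known HIF-1 target, had 2.17, 2.26 and 2.26 FPKM in untreated WT cells and 1.13, 1.04 and 1.09 FPKM in untreated Atg7KO cells, with no overlap (−1.04, adjusted p = 0.000616 by edgeR), but this did not pass with an offset for gene length. PDK1 fell in WT cells after H2O2 by −0.82. The summed FPKM of the 4 kinases was 19.6 ± 0.719 and 13.6 ± 0.591 FPKM in untreated and treated WT cells and 14.0 ± 1.06 and 10.6 ± 0.207 FPKM in Atg7KO cells. Within it PDK2 went from 69.8 ± 1.19% to 51.1 ± 2.14% in WT cells and from 77.8 ± 2.15% to 52.1 ± 1.65% in Atg7KO cells. PDK3 went from 13.7 ± 1.43% to 25.6 ± 0.780% and from 7.88 ± 1.31% to 35.6 ± 1.05%. PDK4 went from 5.17 ± 1.24% to 14.0 ± 1.81% in WT cells and from 6.54 ± 0.132% to 4.50 ± 0.887% in Atg7KO cells. For these 6 changes of share the groups did not overlap, with p = 0.1 in the exact permutation test. PDK1 went from 11.4 ± 0.659% to 9.22 ± 0.882% in WT cells, also without overlap. In Atg7KO cells it was at 7.80 ± 0.918% and 7.89 ± 0.958%, and the groups overlapped. The shares of the families not described here overlapped in some comparisons.

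PDHA1 had 27.6 to 29.4 FPKM in 11 of the 12 libraries and 42.9 FPKM in untreated Atg7KO replicate 1. It passed in none of the comparisons. PDHB, the E1 beta subunit, fell after H2O2 in WT cells, from a range of 10.8 to 11.2 FPKM to 7.68 ± 0.876 FPKM (−0.52, adjusted p = 3.64e-09 by edgeR), which did not pass in the fit of all 12 libraries. In Atg7KO cells it went from 18.7, 11.2 and 11.9 FPKM to 6.18, 6.17 and 5.30 FPKM (−1.25, adjusted p = 0.00296 by edgeR; −0.99 without untreated replicate 1), which did not pass without any 1 treated library.

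Regulators. TXNIP (ENSG00000265972, chromosome 1, 145992435 to 145996600) had 25.8, 23.5 and 24.2 FPKM in untreated WT cells and 13.7, 13.3 and 17.3 FPKM after H2O2. The Atg7KO libraries had 12.5, 9.52 and 11.1 FPKM untreated and 2.93, 4.35 and 4.07 FPKM after H2O2. No group overlapped another, and the treated Atg7KO libraries were lowest. TXNIP fell after H2O2 in both lines, by −0.73 in WT cells (SE 0.08, adjusted p = 8.36e-08) and −1.55 in Atg7KO cells (SE 0.18, adjusted p = 0.000614), in edgeR's quasi-likelihood test, Benjamini-Hochberg adjusted. The difference of −0.81 did not pass (adjusted p = 0.0114 by edgeR). Atg7KO cells had lower TXNIP than WT cells both untreated (−1.15, adjusted p = 0.00102) and after H2O2 (−1.97, adjusted p = 2.14e-05) by edgeR.

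ARRDC4 (ENSG00000140450, chromosome 15, 97960698 to 97973838) had 2.99, 2.70 and 3.18 FPKM in untreated WT cells and 3.40, 3.80 and 3.48 FPKM after H2O2. The Atg7KO libraries had 1.27, 0.786 and 1.13 FPKM untreated and 1.03, 1.17 and 1.10 FPKM after H2O2. Each Atg7KO library lay below each WT library, and H2O2 passed in neither line (0.26, adjusted p = 0.0291; 0.05, adjusted p = 0.854; edgeR). ARRDC4 was lower in Atg7KO cells by −1.48 untreated (adjusted p = 0.00268) and −1.70 after H2O2 (adjusted p = 2.92e-13) by edgeR's quasi-likelihood test, Benjamini-Hochberg adjusted. The untreated differences of TXNIP and ARRDC4 did not pass when any 1 WT library was left out, and that of ARRDC4 also not without Atg7KO replicate 3. HIF1A, the regulated subunit of HIF-1, rose from 115 ± 5.70 to 176 ± 2.92 FPKM in WT cells (0.61, adjusted p = 4.44e-18) and from 114 ± 8.14 to 201 ± 2.39 FPKM in Atg7KO cells (0.81, adjusted p = 0.000921) by edgeR. It is known to be controlled mostly at the level of its protein, which was not measured here.

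The promoters of TXNIP and ARRDC4 are shown because both genes were lower in Atg7KO cells with and without H2O2. HK2 and PDK1 were lower in both comparisons too. They are RefSeq windows on GRCh38.p14 from 250 bases before to 50 bases after the annotated start, read along the gene. That of TXNIP, on the minus strand at chr1:145996530-145996829, has in capitals a pair of CACGNG hexamers 5 bases apart, the letters of a carbohydrate response element, beginning at −88 from the start. That of ARRDC4, on the plus strand at chr15:97960453-97960752, has in capitals an E-box, CACGTG, beginning at −210 from the start, and no such pair in this window. TXNIP has another window, at chr1:145995695-145995994, which also has no such pair. HIF cores are not marked here, of which the printed window of TXNIP has 2 and that of ARRDC4 has 6.
TXNIP: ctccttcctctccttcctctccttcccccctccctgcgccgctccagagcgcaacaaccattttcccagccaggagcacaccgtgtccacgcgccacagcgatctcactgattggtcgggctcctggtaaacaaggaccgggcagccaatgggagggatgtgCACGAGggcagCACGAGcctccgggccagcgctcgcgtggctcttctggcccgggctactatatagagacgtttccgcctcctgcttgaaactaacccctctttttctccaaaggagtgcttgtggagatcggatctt
ARRDC4: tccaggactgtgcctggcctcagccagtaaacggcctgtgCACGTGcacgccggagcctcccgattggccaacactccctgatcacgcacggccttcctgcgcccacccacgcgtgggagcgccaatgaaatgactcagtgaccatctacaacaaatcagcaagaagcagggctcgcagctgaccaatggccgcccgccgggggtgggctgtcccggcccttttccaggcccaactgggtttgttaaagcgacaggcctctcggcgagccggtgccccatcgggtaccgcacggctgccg
Searched on both strands, the pair of hexamers was found in 20 of 35116 promoters (0.057%), TXNIP being the 1 member among them. The E-box, which contains the HIF core, was found in 9 of the 60 member windows (15%) and in 7.26% of all promoters.

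**Figure D3:**
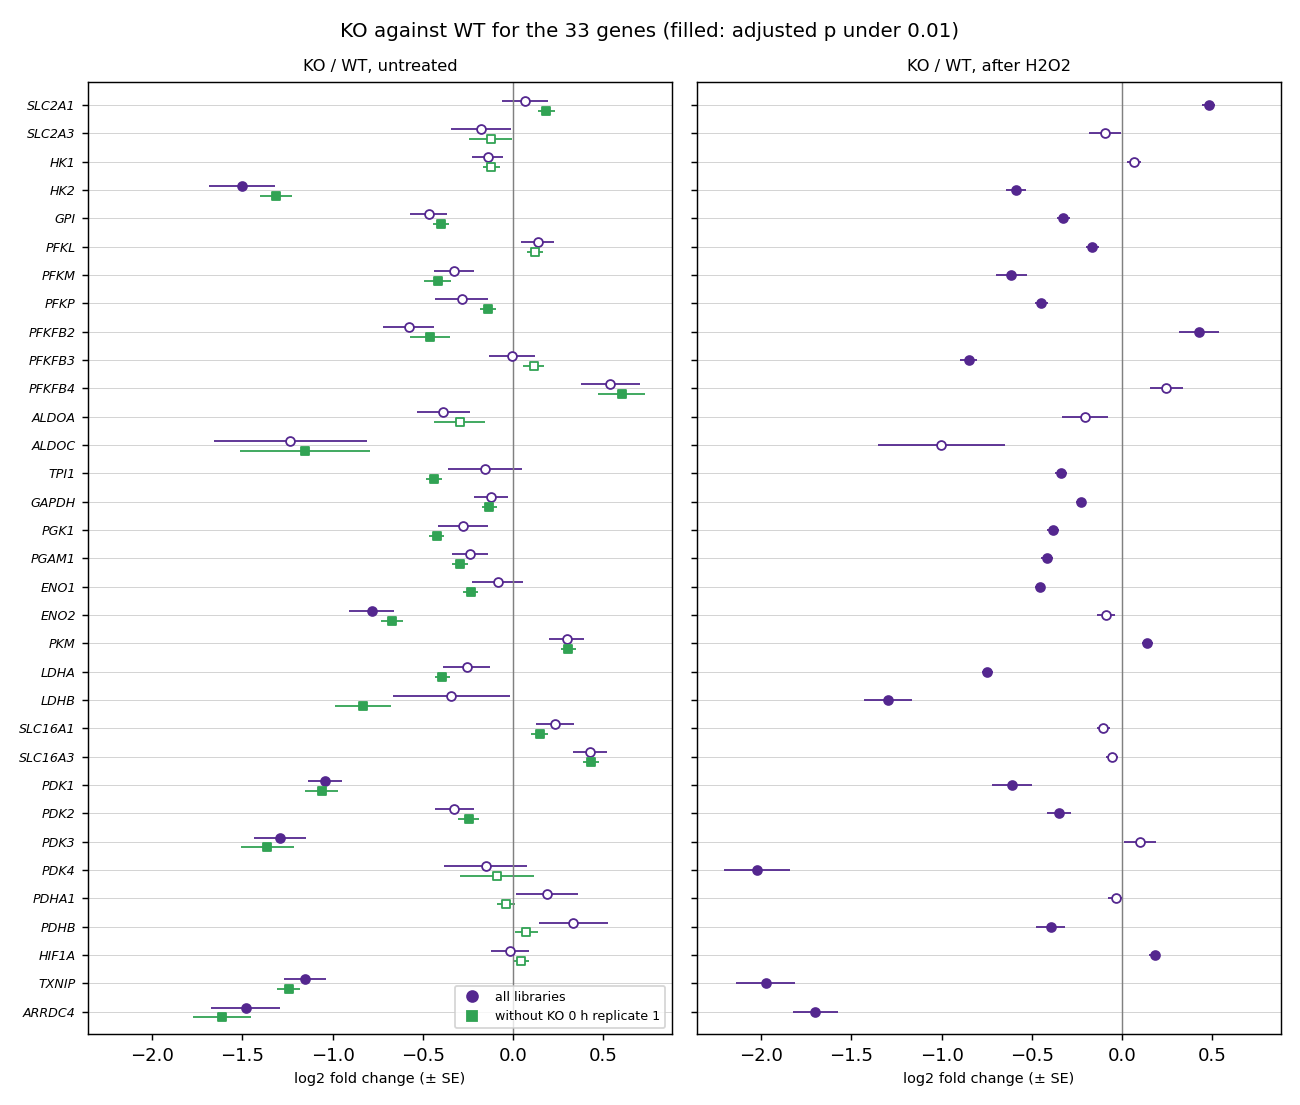
Log2 fold change of Atg7KO against WT cells (horizontal axes) for each of the 33 members (vertical axis), untreated with and without Atg7KO replicate 1 and after H2O2, with bars of 1 standard error. Filled symbols have an adjusted p under 0.01; after H2O2, PDK4 (−2.02), TXNIP (−1.97) and ARRDC4 (−1.70) were lowest and SLC2A1 (0.48) was highest.

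The genes on either side of the members were compared, since stretches of chromosomes can differ between cell lines. The 20 tested genes on each side of TXNIP had a median log2 fold change of 0.15 between treated Atg7KO and WT cells, those of ARRDC4 0.08 (−0.20 between the untreated lines, with 27 of 40 below 0), of PDK4 0.15, of HK2 0.24 and of LDHA −0.11. These 5 members were at −1.97, −1.70, −2.02, −0.59 and −0.75. They were chosen for their low values. PFKL, at −0.16, lay above the median of its neighbours (−0.28, with 27 of 40 below 0), as did SLC16A3, at −0.05 (−0.25, with 30 of 40 below 0). GAPDH (−0.23), TPI1 (−0.34) and ENO2 (−0.09), which share a stretch of chromosome 12, had neighbour medians of −0.24, −0.22 and −0.15, with 27, 27 and 25 of 40 genes below 0.

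Other genes of these pathways were taken from 6 lists of 86 genes. Of all genes tested, 30.9% rose and 30.1% fell in WT cells. Of 24 further enzymes of glycolysis and its branches, 13 were tested in WT cells, and 8 rose and 1 fell after H2O2. TIGAR, a phosphatase that lowers fructose 2,6-bisphosphate, rose from 0.293 ± 0.0614 to 2.22 ± 0.322 FPKM in WT cells (2.91, adjusted p = 2.68e-17) and from 0.250 ± 0.122 to 1.26 ± 0.111 FPKM in Atg7KO cells (2.34, adjusted p = 0.00144) by edgeR. GPD1 rose by 3.75 in WT cells, from 0.0801 ± 0.0803 FPKM, and by 4.23 in Atg7KO cells, from 0.0199 ± 0.0233 FPKM. Both of its values start from a level near 0. ENO3 rose by 1.68 in WT cells. GPD2, the mitochondrial glycerol 3-phosphate dehydrogenase, rose by 0.68 in WT and 1.39 in Atg7KO cells. It was higher in Atg7KO than in WT cells after H2O2 (0.71, adjusted p = 5.61e-15 by edgeR). PGM1 fell by −0.57 in WT and −1.03 in Atg7KO cells. Of 15 tested between the treated lines, 3 were higher and 4 lower in Atg7KO cells, against 27.7% and 27.9% of all genes. In Atg7KO cells 3 of 11 rose and 1 fell with H2O2 (13.6% and 12.4% of all genes), or 6 and 2 of 12 without untreated replicate 1 (29.8% and 28.6%), and TIGAR (−0.81) and GPD1 (−1.49) were lower in treated Atg7KO than in treated WT cells. Between the untreated lines 0 of 10 passed in edgeR, 3 were higher and 0 lower at an unadjusted p under 0.05 (32.9% of all genes in either direction), and 2 were higher without Atg7KO replicate 1 (18.2% of all genes). The interaction passed for GPD2 (0.71) and ENO3 (−1.13), or 2 higher and 3 lower without untreated Atg7KO replicate 1 (7.02% and 7.01% of all genes, and 17.8% and 16.3% without it), and that of GPD2 did not pass without any 1 WT library or any 1 treated Atg7KO library.

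Of 13 other transporters of glucose and lactate, 7 were tested. In WT cells 2 rose and 2 fell (30.9% and 30.1% of all genes), with SLC16A7 (MCT2) at −1.36 and SLC2A8 (GLUT8) at 0.59. After H2O2, 1 was higher and 4 were lower in Atg7KO than in WT cells (27.7% and 27.9% of all genes). Among the lower was BSG, the chaperone that brings MCT1 and MCT4 to the membrane, at 186 ± 4.62 FPKM in WT and 144 ± 0.845 FPKM in Atg7KO cells (−0.38, adjusted p = 6.34e-12 by edgeR). SLC2A6 (GLUT6) was higher in untreated Atg7KO cells (0.65, adjusted p = 0.00341 by edgeR), passing in no fit without 1 library except that without Atg7KO replicate 1. With H2O2 in Atg7KO cells 1 of 6 rose (SLC2A8, 0.75) and 1 fell (SLC2A6, −0.91), against 13.6% and 12.4% of all genes. Without untreated replicate 1, 2 of 7 rose and 3 fell, against 29.8% and 28.6%. Between the untreated lines 1 of 7 was higher and 1 lower (4.42% and 3.28% of all genes), or 1 and 3 without Atg7KO replicate 1 (18.2% and 17.9%). The interaction passed for SLC16A7 (1.14) and SLC2A6 (−0.81), against 7.02% and 7.01% of all genes, and for 1 higher and 2 lower without that library (17.8% and 16.3%). SLC16A7 was higher in treated Atg7KO than in treated WT cells (0.81), and SLC16A4 fell in WT cells (−0.77), though not without untreated replicate 1 or 2 or treated replicate 2 or 3.

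Of 14 genes of pyruvate entry, 13 were tested, and 1 rose and 6 fell in WT cells after H2O2 (30.9% and 30.1% of all genes). PDP1, the phosphatase that reactivates pyruvate dehydrogenase, had 12.0 ± 0.475 FPKM in treated WT cells (a fall by −0.74 from the untreated cells), and 21.4 ± 0.241 and 21.4 ± 0.687 FPKM in Atg7KO cells. Its responses differed by 0.74 (adjusted p = 0.000151 by edgeR). PC, pyruvate carboxylase, fell in both lines (−1.03 and −0.94). MPC1, a subunit of the mitochondrial pyruvate carrier, was lower in treated Atg7KO than in treated WT cells (−0.53, adjusted p = 0.00331 by edgeR), but did not pass without treated WT replicate 1 or 3 or treated Atg7KO replicate 2 or 3. In that comparison 6 of the 13 were higher, ME2 (0.47) and PDP1 (0.83) among them, and 2 lower (27.7% and 27.9% of all genes). In Atg7KO cells 1 rose (ME2, 0.41, which passed in no fit without 1 library except that without untreated replicate 1) and 1 fell (PC, which did not pass without treated replicate 1 or 3), against 13.6% and 12.4% of all genes, and PDPR fell in WT cells (−0.51). Without untreated replicate 1, 2 rose and 4 fell in Atg7KO cells, against 29.8% and 28.6%. The interaction was higher for 1 of 13 (7.02% of all genes), and for 5 without that library (17.8%). Without H2O2, 0 of 13 passed between the lines in edgeR, with 3 higher and 2 lower at an unadjusted p under 0.05 (32.9% of all genes in either direction), and 2 higher and 1 lower without Atg7KO replicate 1 (18.2% and 17.9% of all genes).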

How the data were processed

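The authors sequenced total RNA and deposited whole-number read counts per gene, not normalized, and FPKM made from the same counts, for 58735 genes on GRCh38. The submitters' processing notes name HISAT2 2.0.5 and featureCounts 1.5.0-p3 without their roles. The strand and multi-mapping settings are not given in the sources used here. The members and lists were chosen with earlier results of these data known. Counts were filtered by filterByExpr (minimum count 10), scaled by TMM and fitted by edgeR 4.0.16's robust quasi-likelihood method in R 4.3.3, each pair of groups in its own 6 libraries and the interaction in 12, with Benjamini-Hochberg adjustment over all genes tested. A gene passed at an adjusted p under 0.01. The further thresholds were a log2 fold change beyond 1 and a mean above 1 FPKM in a group. Shares and promoters were computed with Python 3.11.15, pandas 2.3.3 and scipy 1.17.1, and plots with matplotlib 3.10.9. Named genes are the members, ATG7, the markers and, of each list and comparison, up to 3 passing genes above 1 FPKM with the largest log2 fold change. Alternatives were RLE scaling, DESeq2 1.42.0, no filter, all 12 libraries, a replicate block, limma 3.58.1 on log2(FPKM + 1), a gene length offset (lowess, span 0.3), an adjusted p under 0.05 and each library left out. They were applied to the named companion genes and ATG7 after the data were seen. The fitting procedure was tested on simulated data, but no outcome of that is given here, so it lends no weight to the calls.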

Additional observations from a re-analysis of the deposited data

Results flagged for a closer look

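For 7 members the response to H2O2 differed between the lines, the interaction having an adjusted p under 0.01 in edgeR's quasi-likelihood test, Benjamini-Hochberg adjusted. The values are the log2 response in Atg7KO cells minus that in WT cells, with 3 libraries in each group. PDK3 had a difference of 1.40 (adjusted p = 9.19e-05 by edgeR; 1.48 without untreated Atg7KO replicate 1), with a rise in both lines. PDK4 had a difference of −1.86 (adjusted p = 0.00114 by edgeR; −1.91 without that library), with a rise in WT cells and a fall in Atg7KO cells that did not pass in 5 of the 6 fits without 1 library. For ENO2 and PDK4 alike, the fit in which it passed was that without untreated replicate 1. PFKFB3 had −0.84 (adjusted p = 0.00121 by edgeR; −0.94 without it), with a rise in both lines. ENO2 had 0.70 (adjusted p = 0.00209 by edgeR; 0.60 without it), with a rise in Atg7KO cells that did not pass in 5 of the 6 fits of that comparison without 1 library. PFKFB2 had 1.01 (adjusted p = 0.00289 by edgeR; 0.90 without it), with a fall in WT cells, not passing with an offset for gene length, with limma or in the fit of all 12 libraries, and a positive value in Atg7KO cells. HK2 had 0.92 (adjusted p = 0.00331 by edgeR; 0.74 without it), with a rise in both lines. SLC16A3 had −0.47 (adjusted p = 0.00280 by edgeR; −0.47 without it), with a rise in WT cells. PFKFB3, ENO2, PDK3 and PDK4 passed in each of the 12 fits that left out 1 library, while PFKFB2 did not pass without treated WT replicate 2. HK2 did not pass in 7 fits, those without untreated WT replicate 1 or 3, any 1 treated WT library or treated Atg7KO replicate 2 or 3. SLC16A3 did not pass in 6 fits, those without untreated WT replicate 1 or 3, treated WT replicate 2 or any 1 treated Atg7KO library. The cause of these differences was not tested.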

How the results depend on the processing

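The 5 comparisons gave 165 values of members, 75 of which passed. Under the alternatives other than leaving out a library, 1028 values kept their direction and side of the threshold, 40 no longer passed, 34 newly passed and 14 changed sign. The alternative of an adjusted p under 0.05 is not in these counts. When 1 library was left out, the counts were 1032, 90, 41 and 25. Calls that passed under every alternative other than leaving out a library numbered 15 of 23 for H2O2 in WT cells, 9 of 16 in Atg7KO cells, 15 of 23 between the treated lines, 4 of 6 between the untreated lines and 7 of 7 for the interaction. For H2O2 in WT cells, PFKL, PFKP, PFKFB2, GAPDH, ENO1, LDHA and PDHB did not pass in the fit of all 12 libraries, GPI, PFKFB2, GAPDH and LDHA with the gene length offset, PFKFB2, GAPDH and ENO1 with limma, GAPDH and ENO1 without a filter and ENO1 with the replicate block. In Atg7KO cells SLC2A3, PFKL, PFKFB4, ENO2, LDHA, SLC16A1 and PDK4 did not pass with the replicate block, LDHA with limma and PFKL without a filter. Between the treated lines PFKL, PFKFB2, TPI1, GAPDH, PKM, PDHB and HIF1A did not pass in the fit of all 12 libraries, PFKFB2 and PKM with the gene length offset and PFKFB2, PDK1 and PDHB with limma. Between the untreated lines PDK1 did not pass with the gene length offset and ENO2 with the replicate block. With the replicate block, 22, 9, 23, 5 and 7 members passed, and of all genes 61.1%, 19%, 54.7%, 3.25% and 11.8%. The correlation of same-numbered libraries' deviations was from −0.043 to 0.098, so no effect shared by same-numbered libraries was seen. Whether such libraries were handled together is not given in the sources used here. Between the untreated lines DESeq2 gave 10 members and the fit of all 12 libraries 12, against 6, while the share of all genes went from 7.7% to 16.4% and 18.7%. For the interaction, 11 passed without a filter and 13 at an adjusted p under 0.05, against 7, and of all genes 11.1% and 30.1%, against 14%. Leaving out 1 library gave 21 to 23 members for H2O2 in WT cells, 5 to 24 in Atg7KO cells, 22 to 24 between the treated lines, 1 to 24 between the untreated lines and 4 to 16 for the interaction. Among these fits, shares of all genes are given only for those without untreated Atg7KO replicate 1.

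Of the values that passed, PFKL in WT cells changed sign, to 0.0487 with the gene length offset. With that offset TPI1 was −0.0772 in WT and 0.0131 in Atg7KO cells, and PFKFB3 0.0465 between the untreated lines. The interaction with it was −0.0194 for SLC2A3, −0.21 for GPI, 0.0778 for TPI1, 0.0941 for GAPDH, 0.0823 for PGAM1 and −0.0626 for PDK1. Without a filter, TPI1 was −0.0012 and PDHA1 −0.0246 in WT cells, and the PDK2 interaction 0.0141 (0.0130 with limma). Leaving out 1 library gave these ranges. With H2O2 in WT cells PDHA1 ranged from −0.0095 to 0.0177. In Atg7KO cells ALDOC ranged from −0.61 to 0.23, TPI1 from −0.27 to 0.15, PDHA1 from −0.31 to 0.0288 and ARRDC4 from −0.13 to 0.19. Between the treated lines PDHA1 ranged from −0.0423 to 0.0018. Between the untreated lines SLC2A1 ranged from −0.0057 to 0.18, PFKFB3 from −0.0689 to 0.11, ENO1 from −0.23 to 0.001, PDK4 from −0.33 to 0.0625, PDHA1 from −0.0412 to 0.30 and HIF1A from −0.0694 to 0.0430. For the interaction SLC2A3 ranged from −0.0231 to 0.23, ALDOC from −0.0735 to 0.77, TPI1 from −0.30 to 0.12, PGK1 from −0.17 to 0.0614, PDK2 from −0.0811 to 0.0673 and PDHA1 from −0.32 to 0.0256. The cause was not tested. For ATG7 and the named companion genes, 0 values changed sign, 29 no longer passed under the alternatives other than leaving out a library and 61 when 1 library was left out. No other setting was run for isoform shares. The biological coefficient of variation was 0.161 and 0.162 in the comparisons with untreated Atg7KO cells, against 0.0470 and 0.0416 in those of WT with H2O2 and of the treated lines.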

Other observations

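Known HIF targets outside glycolysis moved in both directions. Of 15 tested, 7 rose and 4 fell after H2O2 in WT cells (30.9% and 30.1% of all genes tested), and 6 rose and 2 fell in Atg7KO cells (13.6% and 12.4%). Without untreated Atg7KO replicate 1 the latter were 8 and 5 (29.8% and 28.6% of all genes). ANGPTL4, an inhibitor of lipoprotein lipase, rose from 0.225 ± 0.0351 to 18.2 ± 0.969 FPKM in WT cells (6.31, adjusted p = 4.69e-36) and from 0.763 ± 0.0645 to 17.1 ± 0.295 FPKM in Atg7KO cells (4.48, adjusted p = 2.97e-06) by edgeR. DDIT4, an inhibitor of mTORC1, had 21.4, 24.9 and 18.4 FPKM in treated WT cells and 5.25, 5.68 and 5.13 FPKM in treated Atg7KO cells (−2.01, adjusted p = 9.44e-17 by edgeR). Between the treated lines 8 of the 15 were lower in Atg7KO cells and 3 higher (27.9% and 27.7% of all genes). CA9, a carbonic anhydrase widely used as a marker of HIF activity, had 7.15, 6.51 and 5.90 FPKM in untreated WT and 0.545, 0.907 and 0.906 FPKM in untreated Atg7KO cells (−3.04, adjusted p = 0.000276 by edgeR). NDRG1 went the other way, at 0.720 ± 0.0954 and 1.55 ± 0.158 FPKM in untreated WT and Atg7KO cells (1.11, adjusted p = 0.00280 by edgeR). After H2O2 it rose by 2.78 in WT and 3.12 in Atg7KO cells. The untreated difference of NDRG1 did not pass without any 1 untreated WT library or Atg7KO replicate 3. LOX was lower in Atg7KO cells (−1.21 untreated, −1.92 after H2O2), and CA12 rose by 3.19 in WT and 3.58 in Atg7KO cells. In untreated cells 3 of the 15 were higher and 4 lower (4.42% and 3.28% of all genes), or 4 and 7 without Atg7KO replicate 1 (18.2% and 17.9%). The interaction was lower for 5 (7.01% of all genes), or higher for 4 and lower for 6 without that library (17.8% and 16.3%), with DDIT4 (−1.96), ANGPTL4 (−1.83) and CA9 (−1.49) among them, CA9 passing in 2 of the 12 fits without 1 library, those without untreated replicate 1 or treated replicate 2 of the Atg7KO cells. Of 8 tested genes that regulate HIF, 1 rose and 4 fell in WT cells (30.9% and 30.1% of all genes). EPAS1, which encodes HIF-2 alpha, rose by 1.48 in WT and 2.17 in Atg7KO cells and had 44.2 ± 1.77 and 78.7 ± 1.07 FPKM after H2O2 (0.83, adjusted p = 2.28e-19 by edgeR), while ARNT, the partner subunit, fell in WT cells by −0.94 and ARNT2 by −0.70. In Atg7KO cells 1 of 8 rose and 0 fell in edgeR (13.6% and 12.4% of all genes), with 2 higher and 2 lower at an unadjusted p under 0.05 (25.2% and 26.2%). Without untreated replicate 1, 2 rose and 2 fell (29.8% and 28.6%). Between the treated lines 4 were higher, ARNT (0.55) and EGLN2 (0.41) among them, and 1 lower (27.7% and 27.9%). Without H2O2, 0 of 8 passed between the lines in edgeR, with 0 higher and 3 lower at an unadjusted p under 0.05 (32.9% of all genes in either direction), and 1 higher and 3 lower without Atg7KO replicate 1 (18.2% and 17.9% of all genes). The interaction passed for ARNT (0.96), and was higher for 3 without that library (7.02% and 17.8% of all genes).

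Among 11 genes around MondoA, MYC and the arrestins, 7 of 10 tested rose and 1 fell after H2O2 in WT cells (30.9% and 30.1% of all genes). MYC had 22.0 ± 0.855 FPKM in untreated WT cells and 50.4, 47.8 and 44.8 FPKM after H2O2, and 12.3, 14.5 and 14.2 FPKM in untreated and 15.7, 16.8 and 15.7 FPKM in treated Atg7KO cells. Its responses differed by −0.88 (adjusted p = 0.000274 by edgeR). Between the treated lines 5 of the 11 were lower and 1 higher in Atg7KO cells (27.9% and 27.7% of all genes). ARRDC1 was lower (−1.13, adjusted p = 1.64e-14 by edgeR), while MLXIP, which encodes MondoA, was higher (0.32, adjusted p = 5.37e-08 by edgeR). ARRDC2, a relative of TXNIP, rose by 1.23 in WT cells and rose in Atg7KO cells too. In Atg7KO cells 3 of 11 rose and 2 fell (13.6% and 12.4% of all genes), MXD4 (−0.85) among the latter, or 7 and 2 without untreated replicate 1 (29.8% and 28.6%). In untreated cells 2 of 10 were lower in the Atg7KO line, MYC (−0.69) and MLX (−0.58), against 3.28% of all genes, or 2 higher and 3 lower without Atg7KO replicate 1 (18.2% and 17.9%). The interaction was lower for 2 of 11, MYC and ARRDC1 (−0.97), against 7.01% of all genes, or higher for 2 and lower for 2 without that library (17.8% and 16.3%). The untreated differences of MYC and MLX passed in no fit without 1 library except that without Atg7KO replicate 1, and that of MLXIP after H2O2 did not pass with an offset for gene length.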
